A study of Mus musculus with 108 samples.

Results

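The major histocompatibility complex (MHC) genes and the genes that load peptides onto their products were followed at 6 times of day in mice of 2 genotypes, in the liver, the kidney and the white adipose tissue (WAT). They were chosen by name: the protein-coding genes whose symbol starts with H2-, of which there are 34, and 7 further genes, B2m, Tap1, Tap2, Tapbp, Ciita, Cd74 and Nlrc5. That makes 41 genes of the 55416 in the deposited count table, and 37 of the 41 lie on chromosome 17. A further 11 H2- symbols that the table does not list as protein coding, among them H2-K2, H2-Q5 and H2-T10, were left out.

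The knockout mice carried the label Bmal1-iKO (iKO here) and their controls the label Bmal1-flox (flox here). All were male, of strain C57BL/J and 8 to 12 weeks old, and lived in 12 h of light and 12 h of darkness with free access to food and water. Bmal1, gene symbol Arntl, encodes a transcription factor that the circadian clock needs. The labels name neither a Cre driver nor the cells that lost the gene, and by its title the study is about the intestinal clock. Times are given as zeitgeber time (ZT), which counts hours from when the lights turn on, and were 2, 6, 10, 14, 18 and 22. There were 3 libraries for every combination, and so 18 for each genotype in a tissue. Nothing in the labels ties a library to an animal of its own, and the spread behind the p-values may then be partly technical.

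MHC class I molecules sit on most cells and show short peptides made from the cell's own proteins to CD8 T cells and natural killer cells. Each is a heavy chain, such as H2-K1 or H2-D1, held by the light chain beta 2-microglobulin (B2m), and it receives its peptide from the transporter formed by Tap1 and Tap2 with the help of tapasin (Tapbp). Class II molecules are made mostly by dendritic cells, macrophages and B cells. Their alpha and beta chains (H2-Aa, H2-Ab1, H2-Eb1) are guided by the invariant chain Cd74 and loaded by H2-DM, and they show peptides from the outside to CD4 T cells. Nlrc5 and Ciita are the transactivators of the class I and class II genes, and interferons raise the transcription of both sets.

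Promoters of 5 members are printed because each is abundant in these tissues or moves with the others in some libraries, and because H2-Q10 is set apart from its class I relatives by its tissue. They are RefSeq sequences of build GRCm38.p6, from 250 bases before to 50 bases after the gene's start, on the gene's strand. Capitals mark matches to 4 motifs searched on both strands. These were a 10-base kappaB site, site alpha TGACGC, the Y box CTGATTGG (read CCAATCAG on the other strand) and the core of the interferon-stimulated response element, which is TTTC, any 2 bases and TTTC again. No motif overlaps another in these windows. In the H2-K1 and H2-D1 windows the kappaB site is the first run of capitals, and in the B2m window the core is read on the other strand. The windows are chr2:122147437-122147736 (+) for B2m, chr17:34187306-34187605 (+) for Tap1, chr17:34000284-34000583 (-) for H2-K1, chr17:35262844-35263143 (+) for H2-D1 and chr17:35469839-35470138 (+) for H2-Q10.
B2m: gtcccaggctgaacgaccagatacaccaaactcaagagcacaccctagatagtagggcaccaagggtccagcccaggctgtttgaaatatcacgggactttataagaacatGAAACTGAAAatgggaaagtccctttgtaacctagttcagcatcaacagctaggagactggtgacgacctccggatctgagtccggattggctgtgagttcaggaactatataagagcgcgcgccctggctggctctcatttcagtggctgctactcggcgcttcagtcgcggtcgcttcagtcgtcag
Tap1: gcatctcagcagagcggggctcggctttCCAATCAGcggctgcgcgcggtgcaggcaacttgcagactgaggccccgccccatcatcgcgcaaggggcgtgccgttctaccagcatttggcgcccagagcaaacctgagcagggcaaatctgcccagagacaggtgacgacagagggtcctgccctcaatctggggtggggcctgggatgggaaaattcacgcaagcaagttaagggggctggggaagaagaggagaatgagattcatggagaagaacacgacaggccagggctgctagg
H2-K1: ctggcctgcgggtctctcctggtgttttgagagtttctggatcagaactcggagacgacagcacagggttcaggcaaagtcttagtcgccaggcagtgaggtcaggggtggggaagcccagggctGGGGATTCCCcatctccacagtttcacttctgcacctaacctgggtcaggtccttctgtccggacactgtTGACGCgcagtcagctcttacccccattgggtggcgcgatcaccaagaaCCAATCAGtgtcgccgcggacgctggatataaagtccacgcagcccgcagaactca
H2-D1: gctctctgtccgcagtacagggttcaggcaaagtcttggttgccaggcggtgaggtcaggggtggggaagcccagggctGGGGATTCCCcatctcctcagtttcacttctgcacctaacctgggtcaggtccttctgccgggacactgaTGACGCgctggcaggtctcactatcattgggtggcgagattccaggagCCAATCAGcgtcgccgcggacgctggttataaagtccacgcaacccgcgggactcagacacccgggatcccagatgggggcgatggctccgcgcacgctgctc
H2-Q10: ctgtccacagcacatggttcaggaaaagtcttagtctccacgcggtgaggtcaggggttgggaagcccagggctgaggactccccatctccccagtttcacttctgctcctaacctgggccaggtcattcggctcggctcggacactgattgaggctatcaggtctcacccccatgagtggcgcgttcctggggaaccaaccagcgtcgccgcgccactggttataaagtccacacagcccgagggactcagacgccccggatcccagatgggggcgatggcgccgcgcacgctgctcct

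Of the 41 genes, 34 had a promoter in the RefSeq table, with 37 windows. The kappaB site stood in the promoters of 4 members (H2-K1, H2-D1, H2-Q6 and H2-Q7), against 0.107% of all 32851 windows of the same length. The Y box stood in those of 18 of the 34, against 4.10% of all windows, and site alpha in those of 4 (H2-K1, H2-D1, H2-M3 and H2-Q4), against 7.40%. The interferon-stimulated core stood in the promoters of 3 members (B2m, H2-T22 and H2-T23), against 3.44%. H2-K1 and H2-D1 hold the kappaB site, site alpha and the Y box in the same order. The H2-Q10 promoter holds none of the 4 motifs. With positions counted from 1 at the first letter of each motif as printed for H2-D1, its stretch closest to the kappaB site differed by G2A and T6C, and its stretch closest to the Y box differed by T5C. These matches describe letters in a window and show no binding.

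Depth and tissue identity were checked first. The liver libraries held 14427873 to 23428470 counts in total, the kidney libraries 13875646 to 22122971 and the WAT libraries 14103498 to 24414797. The 41 genes took a median of 0.740% of a liver library, 0.176% of a kidney library and 0.618% of a WAT library. Levels are given as CPM, which are counts scaled to library size with TMM factors over all libraries, and as RPKM, which are CPM per kilobase of gene length, where genes are compared with each other. Summed hepatocyte markers were high in liver, at 83781 to 216850 CPM, and summed kidney tubule markers in kidney, at 11676 to 58352 CPM. Hepatocyte markers reached 9698 CPM in kidney and 7648 CPM in WAT. Summed adipocyte markers varied most, at 221 to 54134 CPM in WAT, against 849 to 5305 CPM in liver and 38.6 to 777 CPM in kidney. The lowest WAT library lay below every liver, so these markers do not set every WAT library apart. Arntl was counted at 3.10 to 31.0 CPM in iKO livers and at 3.21 to 37.8 CPM in flox livers. In kidney it ran from 1.82 to 33.4 CPM in iKO and from 1.12 to 31.9 CPM in flox libraries, and in WAT from 3.06 to 21.9 CPM in iKO and from 2.01 to 29.6 CPM in flox libraries. Its ranges overlapped in each of the 3 tissues, so Arntl does not check the genotype labels there.

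The class I genes set the tissues apart, and in flox mice liver held most of them at the highest level. B2m was the most abundant member per length in every tissue, at 4138 ± 1063 RPKM in liver, 503.5 ± 452 RPKM in kidney and 2392 ± 2712 RPKM in WAT (SD, n = 18 flox libraries each here and below). A single WAT library, described with that tissue, stood far above the others for B2m. H2-K1, a classical heavy chain, had 838 ± 184 RPKM in liver, 111 ± 64.1 RPKM in kidney and 285 ± 122 RPKM in WAT. H2-D1, the other classical heavy chain, had 558 ± 169, 143 ± 66.5 and 320.0 ± 169 RPKM in liver, kidney and WAT. In bulk tissue fewer cells of a type and less RNA per cell cannot be told apart.

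Among the non-classical class Ib heavy chains, H2-Q10, which encodes a soluble class I molecule secreted by the liver, was the third most abundant of all members in liver. It stood at 788 ± 291 RPKM there, against 0.218 ± 0.109 RPKM in kidney and 2.64 ± 3.39 RPKM in WAT. H2-Q1, a less studied class Ib gene of the same cluster at chr17:35320405-35325099 (+, GRCm38), stood at 14.6 ± 34.1 RPKM in liver and at 0.016 ± 0.0229 RPKM in kidney and 0.048 ± 0.037 RPKM in WAT. These were the 2 members whose flox libraries in the highest tissue did not overlap those of the next tissue. The share of all genes with no such overlap is not given here. H2-T23, which encodes the heavy chain Qa-1 that natural killer cells read, was at 152 ± 36.9 RPKM in liver, 50.3 ± 24.8 in kidney and 31.3 ± 16.5 in WAT. H2-T22 and H2-Q4 followed in liver at 57.0 ± 14.8 and 39.9 ± 9.17 RPKM.

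The class II genes Cd74, H2-Eb1, H2-Ab1 and H2-Aa were much closer to each other across tissues. Cd74 had 103 ± 92.8 RPKM in liver, 123 ± 90.4 in kidney and 95.6 ± 62.9 in WAT. H2-Eb1 had 31.8 ± 23.5, 39.0 ± 10.29 and 36.2 ± 26.3 RPKM and H2-Ab1 26.7 ± 19.9, 36.2 ± 29.2 and 25.8 ± 19.2 RPKM in liver, kidney and WAT. H2-Aa had 18.05 ± 14.2, 18.5 ± 9.16 and 18.6 ± 13.2 RPKM. This did not hold for every class II gene. H2-DMb2 averaged 13.5 CPM in WAT, 2.28 CPM in liver and 2.03 CPM in kidney. H2-Ob averaged 3.83 CPM in liver, 1.18 CPM in kidney and 0.961 CPM in WAT. Tissue means of H2-DMa lay at 9.21 to 14.8 CPM and those of H2-DMb1 at 9.99 to 14.7 CPM. With the class I genes lower in kidney, Cd74 was the third most abundant there, above H2-K1. Tapasin (Tapbp) was highest in WAT, at 51.3 ± 15.6 RPKM, against 41.2 ± 13.8 in liver and 24.1 ± 9.32 in kidney. Nlrc5 was at 6.09 ± 2.38, 0.702 ± 0.617 and 1.89 ± 1.66 RPKM in liver, kidney and WAT, and Ciita at 0.412 ± 0.336, 0.423 ± 0.184 and 0.299 ± 0.223 RPKM.

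**Figure D1:**
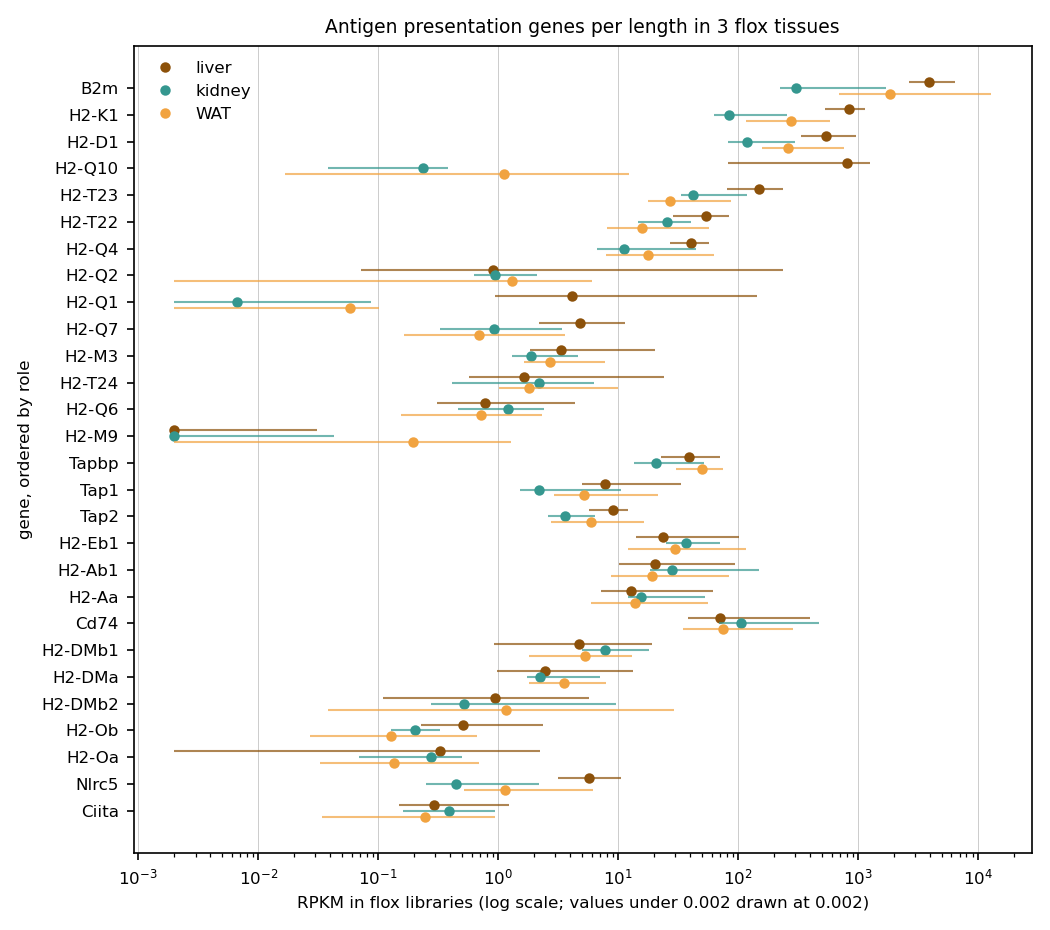
Level per gene length (RPKM, log scale) of 28 members in flox liver, kidney and WAT. A point gives the median of 18 libraries, and a bar runs from the lowest to the highest library. B2m stands highest in each tissue, H2-Q10 and H2-Q1 stand in liver far above the other tissues, and Cd74, H2-Aa, H2-Ab1 and H2-Eb1 lie close together in the 3 tissues.

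The tissue differences were tested in flox mice with edgeR's quasi-likelihood test on all libraries, adjusted by Benjamini and Hochberg over 22789 genes, and a gene is called at an adjusted p under 0.05. Of the 41 members, 31 passed the filter on low counts in this fit. H2-Q1 and H2-Ke6 did not pass it in kidney or WAT fitted alone, H2-M2 and H2-M9 not in liver or kidney, and H2-Eb2 not in kidney. They entered through the tissue where they are high and had to differ, so their values are descriptions. Between liver and kidney 19 of the 31 were called, 18 of them higher in liver, and 16 of the 26 past the filter in both tissues, 15 of them higher. Of all genes tested 62.5% were called, 28.5% as higher and 34.0% as lower in liver. The fitted log2 differences were 11.82 (SE 0.77) for H2-Q10, 9.39 (SE 0.69) for H2-Q1, 3.31 (SE 0.33) for Nlrc5, 3.27 (SE 0.23) for B2m and 2.97 (SE 0.19) for H2-K1. That of H2-Q1 rests on 17 reads in the 18 flox kidney libraries. Only H2-DMb1, a chain of the peptide editor H2-DM, was called lower in liver, by -0.71 (SE 0.26).

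Between liver and WAT 17 of the 31 were called, 14 higher and 3 lower in liver, and 14 of the 27 past the filter in both tissues, with 74.2% of all genes called, 29.1% as higher and 45.2% as lower. The largest were H2-Q10 at 8.58 (SE 0.68), H2-Q1 at 7.10 (SE 0.55), H2-Q7 at 2.59 (SE 0.33), H2-Ke6, a non-MHC gene of the region, at 2.41 (SE 0.56) and H2-T23 at 2.31 (SE 0.21). H2-DMb2 at -2.34 (SE 0.55), Tapbp at -0.32 (SE 0.15) and H2-M9 were lower in liver. H2-M9 had 229 reads in flox WAT, against 1 in flox liver and 2 in flox kidney, so its fold is not given. Between kidney and WAT 15 were called, and 13 of the 26 past the filter in both tissues, with 63.5% of all genes called, 25.1% as higher and 38.4% as lower in kidney. Of those 13, 12 were lower in kidney, among them H2-Q10 at -3.24 (SE 0.55), H2-DMb2 at -2.79 (SE 0.55) and B2m at -2.30 (SE 0.22), and H2-T23 was higher at 0.69 (SE 0.20). The other 2 called were H2-M9 and H2-Q1, and H2-Q1 had only 17 reads in flox kidney and 71 in flox WAT.

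H2-Aa, H2-Ab1, H2-Eb1, Cd74 and Ciita were called in none of the 3 tissue pairs in this fit. For all of them except H2-Aa this turned on the setting. Without any replicate 3, H2-Ab1, Ciita and Cd74 were called for kidney minus WAT, where 57.7% of all genes were. The titles give the tissues a shared number, and with that number as a block H2-Ab1 was called at 0.56 (SE 0.19, adjusted p = 0.00902) and Ciita at 0.73 (SE 0.28, adjusted p = 0.0187) for kidney minus WAT, where 61.5% of all genes were called. For liver minus kidney H2-Ab1 at -0.50 (SE 0.19, adjusted p = 0.0168) and H2-Eb1 at -0.51 (SE 0.19, adjusted p = 0.0172) were then called, where 61.8% of all genes were. Without that block the differences were 0.47 and 0.58 for kidney minus WAT and -0.47 and -0.42 for liver minus kidney, in the same order. The median log2 difference of all genes was -0.06 for liver minus kidney, -0.40 for liver minus WAT and -0.26 for kidney minus WAT, against 1.19, 0.74 and -0.38 over the members tested. The share of members called was near or below that of all genes in each pair. Without the 11 numbers described next, 18, 17 and 16 of 32 members were called for the 3 pairs, where 61.2%, 70.8% and 59.9% of all genes were. Ciita was among them for kidney minus WAT, at 0.78 (SE 0.27, adjusted p = 0.0112), and H2-Eb1 for liver minus kidney, at -0.61 (SE 0.25, adjusted p = 0.0300).

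Before genotypes are compared, 11 of the 36 liver libraries have to be described, since they stand apart from the rest. They were chosen by their cell cycle genes, and their mean log2 CPM over 30 cell cycle genes was 3.24 to 3.90, against -0.85 to 0.95 in the other 25. They are iKO ZT6 replicates 1 and 2, iKO ZT14 1 and 2, iKO ZT18 1 and 2, all 3 of iKO ZT22, flox ZT6 1 and flox ZT22 1. So 9 of 18 iKO libraries and 2 of 18 flox libraries are among them. The labels name no batch that would set them apart. A pair of these libraries, iKO ZT18 1 and iKO ZT22 3, also went against the label male: Xist, which is transcribed from the inactive X chromosome of females, had a log2 CPM of 8.79 and 8.94 there, and at most -0.48 in the other 34 livers. The kidneys of these 2 numbers had 7.24 and 7.90, and the WAT libraries 8.15 and 3.47. The interferon-stimulated genes of the 11 livers averaged 6.03 to 7.61 (log2 CPM, 30 genes), against 2.93 to 5.39 in the other 25, their macrophage markers 7.15 to 8.50 (20 genes), against 2.27 to 6.22, and their hepatocyte markers 10.82 to 12.23 (10 genes), against 11.89 to 12.87. Kidney libraries that share the genotype, time and replicate number with these averaged 4.19 to 6.43 for the interferon-stimulated genes, against 1.70 to 4.33 in the other 25, and those of WAT 2.98 to 6.47, against 1.81 to 4.41. Genotype differences below are given with all libraries, and values without these 11 numbers stand beside them, a choice made after the data were seen. Without them iKO ZT22 has no library, and the fit holds 9 iKO and 16 flox libraries per tissue. The average then runs over the 5 times that have both genotypes. The flox ZT22 libraries that remain stay in the fit but do not enter that average.

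Several members were high or low in the 11 libraries of both genotypes. In liver H2-Q1 ran from 48.5 to 949.5 CPM in the 11 libraries, against 1.75 to 37.7 CPM in the other 25, and H2-Q2, its neighbour in the cluster, from 6.65 to 691.6 CPM, against 0.157 to 5.28 CPM. H2-M3, which presents formylated bacterial peptides, ran from 12.9 to 29.5 CPM, against 1.84 to 8.30 CPM. H2-Q10 was lower there, at 357 to 2186 CPM in the 11 and 2915 to 5420 CPM in the other 25. For these 4 genes the ranges did not overlap. The share of all genes without overlap between these libraries is not given here. Overlap was present for Tap1, at 114 to 182 CPM against 27.4 to 119.6 CPM, and for H2-D1, at 1601 to 3219 CPM against 662 to 1989 CPM. B2m, at 1900 to 5065 CPM against 1791 to 5544 CPM, and H2-K1, at 1796 to 3253 CPM against 1519 to 3349 CPM, covered nearly the same range in both. The part of the 11 libraries in a genotype result, beyond the values without them, was not tested.

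**Figure D2:**
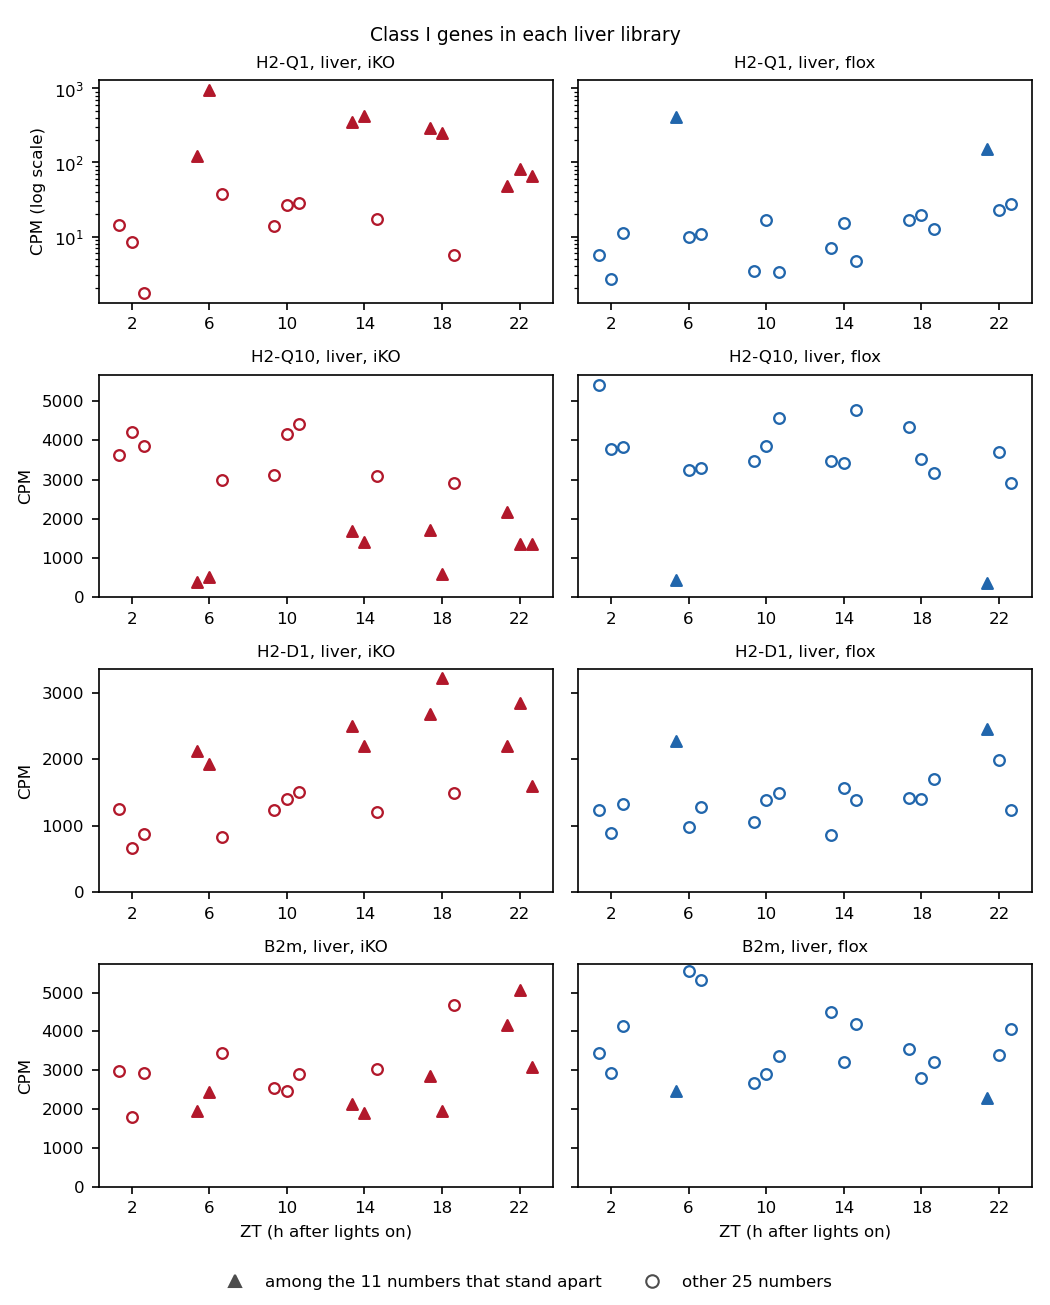
CPM of H2-Q1 (log scale), H2-Q10, H2-D1 and B2m (linear scales from 0) in each liver library by zeitgeber time, iKO left and flox right, with the libraries among the 11 numbers marked. The marked libraries lie at 48.5 to 949.5 CPM for H2-Q1 and at 357 to 2186 CPM for H2-Q10, in both genotypes, and mix with the others for B2m.

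In liver H2-Q1 was the only one of 29 members tested whose average over the 6 times was called different between iKO and flox. It ran from 1.75 to 949.5 CPM (median 43.1) in iKO livers, against 2.68 to 408.1 CPM (median 11.9) in flox livers. The 2 genotypes overlapped over most of that range, and the highest libraries of each, iKO ZT6 replicate 2 and flox ZT6 replicate 1, are among the 11. At ZT14 the 3 iKO livers had 351, 424.8 and 17.5 CPM and the 3 flox livers 7.01, 15.02 and 4.61 CPM. At ZT18 the iKO livers had 290.1, 250.2 and 5.69 CPM and the flox livers 16.8, 19.5 and 12.5 CPM. In both cases the 2 high iKO libraries belong to the 11 and the third lies within or near the flox values.

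The log2 difference of H2-Q1 was 1.92 (SE 0.53, adjusted p = 0.0461 in edgeR's quasi-likelihood test), and 2.64% of the 16582 genes tested were called, 1.09% as higher in iKO. Without the 11 numbers it was 0.65 (SE 0.40, adjusted p = 0.381). Without the 2 numbers with Xist it was 1.83 (adjusted p = 0.101). When the 36 libraries were left out singly it ran from 1.55 to 2.54, with adjusted p up to 0.0995. The call held only without flox ZT6 1, flox ZT10 2, flox ZT22 1, iKO ZT6 3, iKO ZT14 3 or iKO ZT18 3, and was lost without any of the others. H2-Q1 shares 4.64% of its 150-base windows with H2-D1 and H2-Q2, so some of its reads could belong to them.

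The other class I members had these averages in liver, none of them called. H2-Q10 had 2425 ± 1346 CPM in iKO livers and 3424 ± 1265 CPM in flox livers (SD, n = 18 each here and below), a log2 difference of -0.58 (SE 0.30). B2m had 2907 ± 938 CPM in iKO and 3558 ± 914 CPM in flox livers, a difference of -0.31 (SE 0.15, adjusted p = 0.214). H2-D1 had 1762 ± 738 CPM in iKO and 1440 ± 437 CPM in flox livers, and H2-K1 had 2365 ± 502 CPM in iKO and 2461 ± 539 CPM in flox livers, with differences of 0.23 (SE 0.15) and -0.06 (SE 0.11). The differences without the 11 numbers were -0.18 for H2-Q10, -0.21 for B2m, -0.14 for H2-D1 and -0.12 for H2-K1, so that of H2-D1 changed sign. The summed heavy chains made 7634 ± 1072 CPM in iKO and 8205 ± 1250 CPM in flox livers. H2-D1 ran from 662 to 3219 CPM in iKO and from 861 to 2453 CPM in flox livers, and the highest 9 iKO libraries are those among the 11.

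H2-Q7, H2-Q2, H2-T24 and, in this comparison, H2-Q10 were named after their values were seen. H2-Q7, which encodes the class Ib molecule Qa-2, had 17.7 ± 7.11 CPM in iKO and 24.5 ± 11.2 CPM in flox livers, a log2 difference of -0.44 (SE 0.13, adjusted p = 0.0683). It was -0.63 (SE 0.18, adjusted p = 0.0367) without the 11 numbers, where 7.03% of all genes were called, and H2-Q7 was then the one member called. It shares 9.68% of its 150-base windows with H2-Q5 and H2-Q6. H2-T24 had a difference of 1.07 (SE 0.42) and H2-Q2 one of 1.88 (SE 0.83), against -0.28 and -0.33 without the 11 numbers.

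Tap1, a subunit of the peptide transporter, had 89.6 ± 49.4 CPM in iKO and 61.4 ± 47.6 CPM in flox livers, a log2 difference of 0.53 (SE 0.23, adjusted p = 0.16). All 9 iKO libraries among the 11 lay at 114 CPM or more and the other 9 at 58.0 CPM or less. The log2 difference was 0.011 without the 11 numbers. Nlrc5 had 55.8 ± 22.6 CPM in iKO and 51.7 ± 20.2 CPM in flox livers, a difference of 0.06 (SE 0.15). Tapbp and Tap2 differed by 0.27 (SE 0.14) and 0.04 (SE 0.11). With the 11 numbers left out Nlrc5 was at -0.059, Tapbp at -0.037 and Tap2 at -0.30 (SE 0.13, adjusted p = 0.196), so all 3 changed sign.

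The class II genes of liver spread widely within each genotype. Cd74 had 187 ± 168 CPM in iKO and 173 ± 156 CPM in flox livers, and its highest libraries were iKO ZT22 replicate 3 at 688 CPM and flox ZT22 replicate 2 at 668 CPM. H2-Ab1 had 72.0 ± 46.8 CPM in iKO and 68.5 ± 51.2 CPM in flox livers, a log2 difference of 0.08 (SE 0.20). Ciita had 4.48 ± 3.16 CPM in iKO and 3.93 ± 3.20 CPM in flox livers, a difference of 0.14 (SE 0.25). That of Cd74 was 0.02 (SE 0.26). Without the 11 numbers it was -0.061, and H2-Ab1 and Ciita were at 0.065 and 0.042. Summed B cell markers ran from 9.08 to 268 CPM in iKO and from 12.7 to 347 CPM in flox livers, and summed macrophage markers from 293 to 10535 CPM in iKO and from 213 to 10964 CPM in flox livers, with no macrophage marker at 0 throughout. Their part in the class II values was not tested.

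Over the 29 members tested in liver, 20 had a positive and 9 a negative average difference, with a median of 0.08, against 0.00 for all genes. At an unadjusted p under 0.05 there were 5 members, where 24.6% of all genes passed. With the 11 numbers left out 4 were positive and 25 negative, with a median of -0.19, against -0.05 for all genes.

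**Figure D3:**
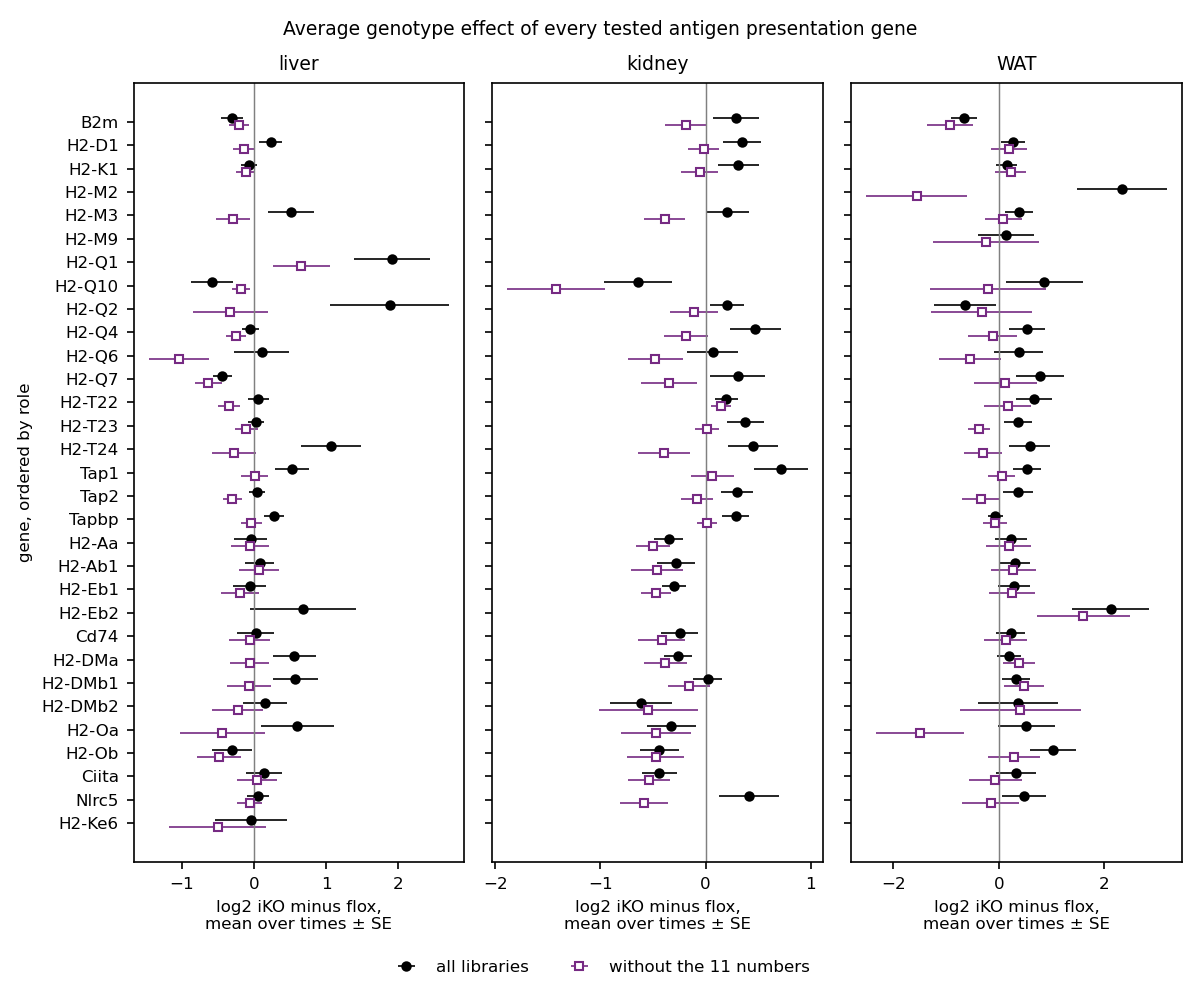
Average iKO minus flox difference (log2) of 31 members in liver, kidney and WAT from edgeR's quasi-likelihood fits, with all libraries and without the 11 numbers; bars are standard errors. H2-Q1 in liver, at 1.92 with all libraries and 0.65 without the 11 numbers, carries the one call of the fits with all libraries, and most liver and kidney points lie lower once the 11 numbers are left out.

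In kidney none of the 26 members tested was called between iKO and flox, and most class I and most class II members had average differences of opposite sign. The call rate over all 17630 genes was 0.164%. With DESeq2 none was called either, and at an unadjusted p under 0.05 there were 8 members, where 9.43% of all genes passed. The 2 classical heavy chains, 8 of 9 class Ib heavy chains and all 3 loading genes had positive differences, and the 3 class II chains tested and 5 of 6 class II assembly genes had negative ones.

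Tap1 had 6.08 to 78.7 CPM (median 22.3) in iKO kidneys, against 8.30 to 57.75 CPM (median 12.1) in flox kidneys, a log2 difference of 0.72 (SE 0.26, adjusted p = 0.308). At ZT18 the iKO kidneys had 58.9, 53.0 and 12.5 CPM and the flox kidneys 12.0, 13.1 and 12.1 CPM, so 2 of the 3 iKO libraries stood above and the third among the flox values. B2m had 156 to 1225 CPM (median 337) in iKO and 192 to 1459 CPM (median 260.3) in flox kidneys, a difference of 0.29 (SE 0.22). H2-D1 averaged 482 ± 249 CPM in iKO and 368 ± 171 CPM in flox kidneys, and H2-K1 411 ± 213 CPM in iKO and 328 ± 188 CPM in flox kidneys, with differences of 0.35 (SE 0.18) and 0.31 (SE 0.20). Nlrc5 averaged 8.51 ± 7.40 CPM in iKO and 5.96 ± 5.24 CPM in flox kidneys, a difference of 0.42 (SE 0.28).

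These kidney genes were high in libraries of both genotypes that carry the 11 numbers. B2m was at 386 to 1264 CPM in those 11 and at 156 to 1459 CPM in the other 25, Tap1 at 23.4 to 78.7 CPM against 6.08 to 40.5 CPM and Nlrc5 at 6.06 to 27.9 CPM against 1.53 to 15.1 CPM. The upper ends of the other 25 come from flox ZT22 replicate 2, which had 1459 CPM of B2m, 40.5 CPM of Tap1 and 795 CPM of Cd74. H2-T24 did not overlap, at 8.13 to 20.4 CPM against 0.907 to 7.93 CPM, and the share of all genes without overlap is not given here. Once the 11 numbers were left out the differences were 0.063 for Tap1, -0.19 for B2m, -0.017 for H2-D1, -0.057 for H2-K1 and -0.58 for Nlrc5.

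The class II chains of the kidney had negative differences without the 11 numbers as well. Ciita ran from 1.41 to 4.22 CPM in iKO and from 1.53 to 8.96 CPM in flox kidneys, with a log2 difference of -0.44 (SE 0.16, adjusted p = 0.338), and -0.54 without the 11 numbers. Cd74 had 165 ± 64.7 CPM in iKO and 206 ± 152 CPM in flox kidneys, a difference of -0.25 (SE 0.18), and -0.42 without the 11. It was -0.081 without flox ZT22 replicate 2 alone, a library that does not enter the average without the 11 numbers either. H2-Ab1 had 72.5 ± 27.7 CPM in iKO and 93.0 ± 74.9 CPM in flox kidneys, a difference of -0.28 (SE 0.18), -0.46 without the 11 numbers and -0.11 without that library. The class II chains had a median of -0.30, and of -0.47 without the 11 numbers. Summed dendritic cell markers ran from 16.3 to 44.3 CPM in iKO and from 20.6 to 47.6 CPM in flox kidneys, and summed macrophage markers from 116 to 540 CPM in iKO and from 125 to 416 CPM in flox kidneys. Summed B cell markers ran from 2.69 to 18.3 CPM (median 9.03) in iKO and from 5.78 to 80.3 CPM (median 11.6) in flox kidneys, so both ends were lower in iKO. The part of these cells in the class II values was not tested.

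Over the 26 kidney members 16 differences were positive and 10 negative, with a median of 0.20, against 0.00 for all genes. Of 27 tested without the 11 numbers 4 were positive and 23 negative, with a median of -0.39, against -0.01, and none was called where 0.422% of all genes were.

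**Figure D4:**
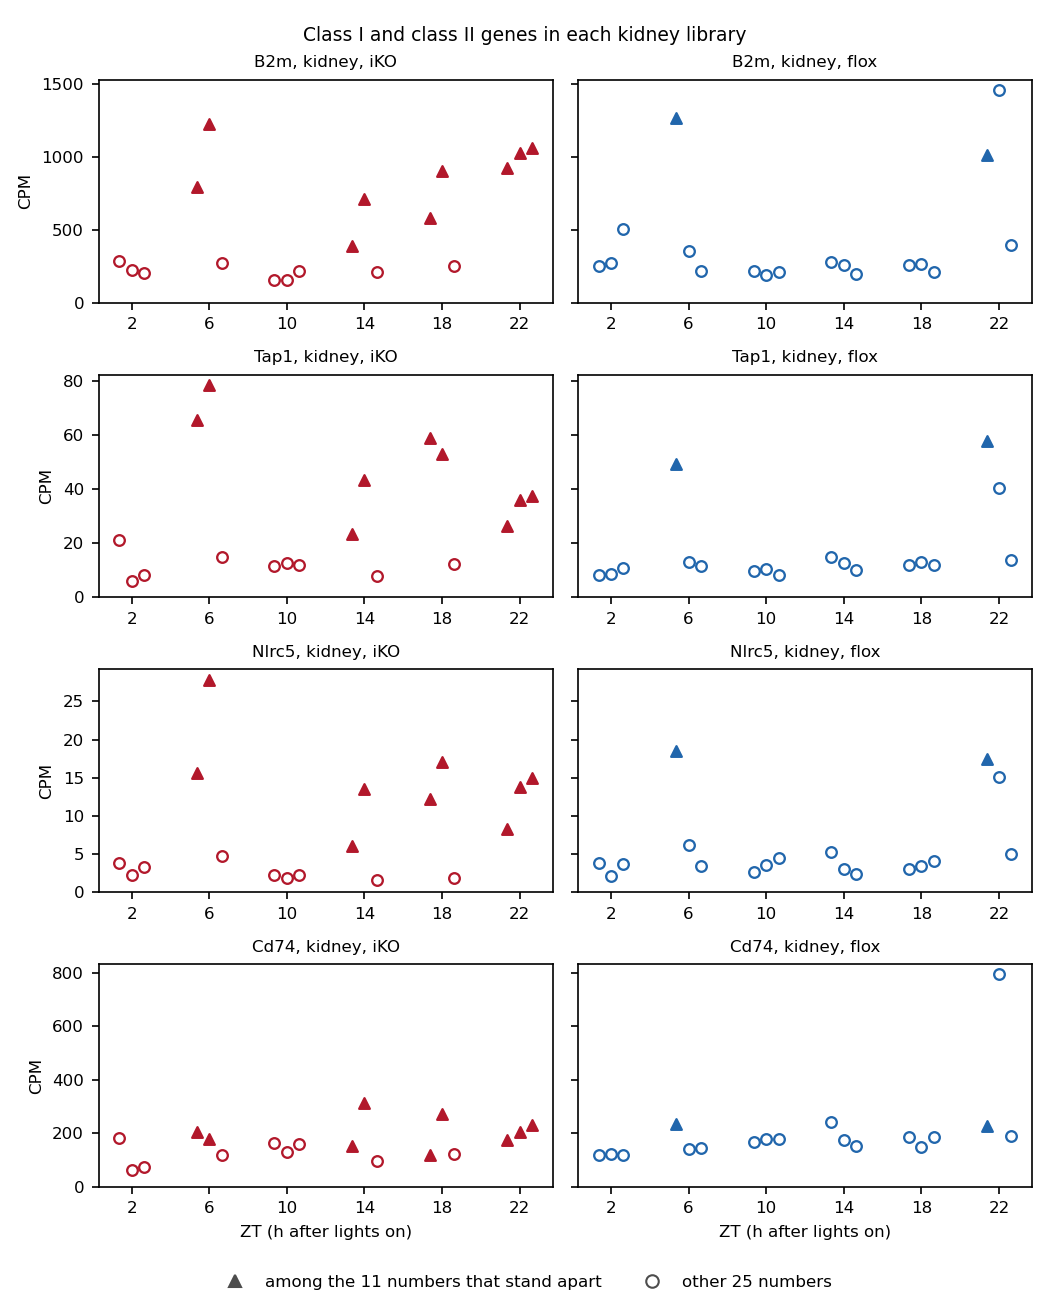
CPM of B2m, Tap1, Nlrc5 and Cd74 in each kidney library by zeitgeber time on linear scales from 0, iKO left and flox right, with the libraries of the 11 numbers marked. The marked libraries make up most of the high values of B2m, Tap1 and Nlrc5 in both genotypes, and flox ZT22 replicate 2, not marked, is the highest for B2m at 1459 CPM and for Cd74 at 795 CPM.

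In WAT no member and no gene was called for the average difference. Of the 29 members tested none passed, where 0.0% of 21402 genes did, and DESeq2 called no member either. At an unadjusted p under 0.05 there were 4 members, where 3.76% of all genes passed. B2m had 512 to 2608 CPM (median 1155) in iKO and 598 to 11046 CPM (median 1576) in flox WAT, a log2 difference of -0.66 (SE 0.25, adjusted p of 1.0). A single library, flox ZT10 replicate 1, had the 11046 CPM, against 512 to 3140 CPM in the other 35. Without it the difference was -0.33, and without the 11 numbers, where it stays in, it was -0.92 (SE 0.44). The other 3 of the 4 members were scarce. H2-Eb2, a class II beta chain, reached 5.82 CPM in iKO and 0.659 CPM in flox WAT at most, H2-M2 3.24 CPM in iKO and 0.513 CPM in flox WAT, and H2-Ob, a chain of the regulator H2-O, 20.7 CPM in iKO and 3.57 CPM in flox WAT. Their log2 differences were 2.12, 2.34 and 1.03, and without the 11 numbers 1.60, -1.55 and 0.28, so that of H2-M2 changed sign.

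The remaining WAT members lay within the spread of both genotypes. H2-D1 had 962 ± 340 CPM in iKO and 825 ± 435 CPM in flox WAT, and H2-K1 923 ± 250 CPM in iKO and 838 ± 358 CPM in flox WAT, with log2 differences of 0.27 (SE 0.23) and 0.15 (SE 0.20). Tap1 had 54.2 ± 32.1 CPM in iKO and 39.3 ± 25.02 CPM in flox WAT, a difference of 0.53 (SE 0.27), and 0.054 without the 11 numbers. Cd74 had 179 ± 86.6 CPM in iKO and 161 ± 106 CPM in flox WAT, and H2-Ab1 75.8 ± 39.7 CPM in iKO and 66.2 ± 49.3 CPM in flox WAT, with differences of 0.23 (SE 0.27) and 0.30 (SE 0.29). Nlrc5 differed by 0.48 (SE 0.41) and Ciita by 0.32 (SE 0.38). These differences without the 11 numbers were 0.19 for H2-D1, 0.23 for H2-K1, 0.13 for Cd74, 0.28 for H2-Ab1, -0.15 for Nlrc5 and -0.067 for Ciita. H2-Q1 did not pass the filter, with 36 reads in iKO and 71 in flox WAT.

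Of the 29 WAT differences 26 were positive, with a median of 0.36, against 0.03 for all genes. Leaving out the 11 numbers gave 15 positive and 14 negative differences, with a median of 0.054, against -0.084 for all genes, and no call, where 0.0% of all genes were called. The WAT libraries of those numbers had 27.2 to 133 CPM of Tap1, against 16.1 to 69.8 CPM in the other 25, and 11.4 to 52.3 CPM of Nlrc5, against 3.99 to 38.3 CPM. Summed adipocyte markers ran from 221 to 54134 CPM in iKO and from 1123 to 47466 CPM in flox WAT, a range far wider than that of the tissue markers in liver or kidney, and its part in the member values was not tested.

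**Figure D5:**
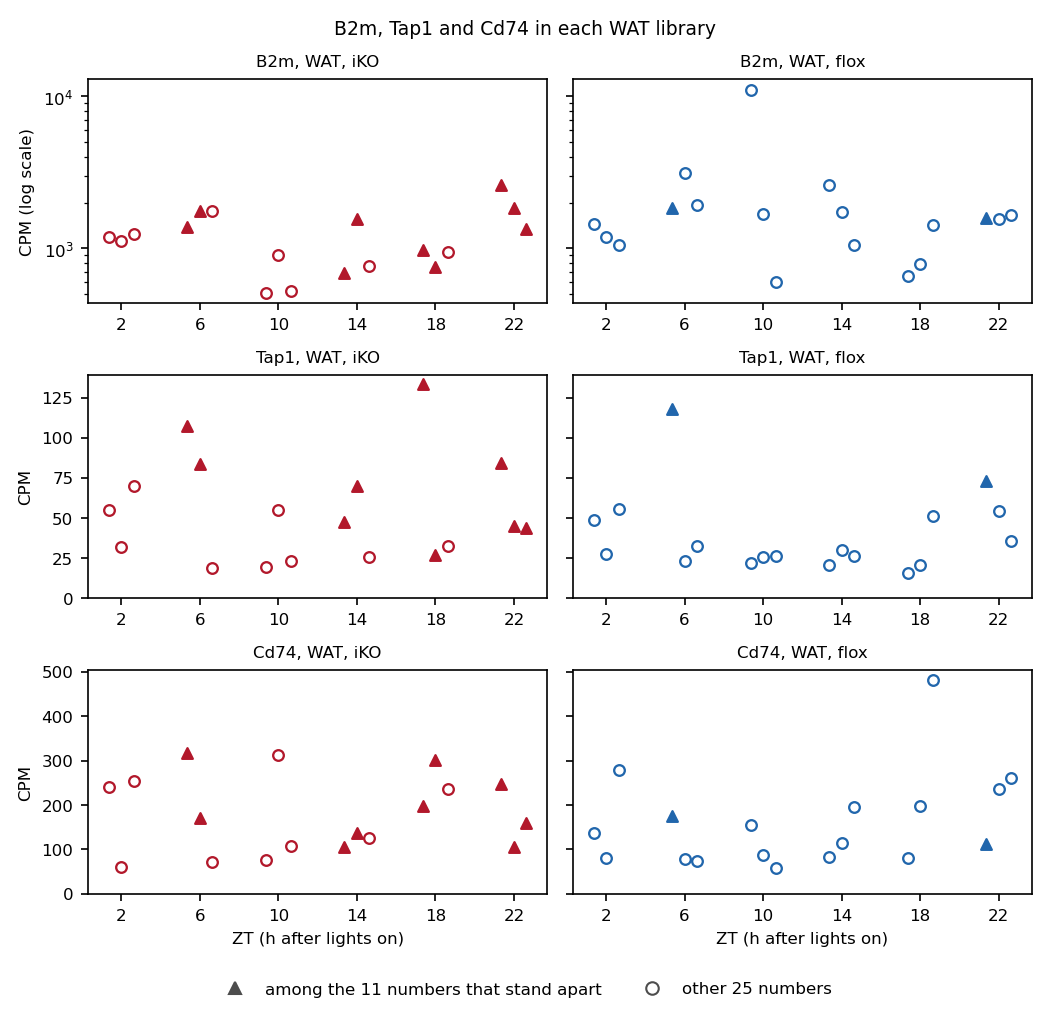
CPM of B2m (log scale), Tap1 and Cd74 (linear scales from 0) in each WAT library by zeitgeber time, iKO left and flox right, with the libraries of the 11 numbers marked. Flox ZT10 replicate 1 stands alone for B2m at 11046 CPM, and the other libraries of both genotypes overlap for all 3 genes.

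At single times no member was called between iKO and flox in any tissue, and no member was called for the interaction of genotype and time. Liver ZT18 had 0.0362% and kidney ZT22 had 0.0113% of all genes called, and every other tissue and time 0.0%. For the interaction it was 0.0% in each tissue. At an unadjusted p under 0.05 the counts were highest at ZT14 and ZT18 in liver, with 7 and 6 of 29 members (19.9% and 19.8% of all genes), at ZT18 in kidney, with 9 of 26 (14.2%), and at ZT6 in WAT, with 5 of 29 (3.26%). No member was called at a single time or for the interaction with the 11 numbers left out. The call rates were then 0.152%, 0.0117%, 0.369%, 0.709% and 0.34% at ZT2, ZT6, ZT10, ZT14 and ZT18 in liver, 0.0932% at ZT14 in kidney, 0.0219% for the kidney interaction, 0.00444% at ZT6 in WAT and 0.0% otherwise. The nearest member in liver was H2-Q2 at ZT18, with a log2 difference of 7.14 (SE 2.34, adjusted p = 0.113). There the iKO livers had 109, 580.6 and 2.32 CPM and the flox livers 0.274, 2.13 and 2.26 CPM, so again the 2 libraries among the 11 were high and the third was not. In kidney the nearest were Ciita at ZT18, at -1.16 (adjusted p = 0.241), and H2-DMb2 at ZT22, at -2.62 (adjusted p = 0.248). In WAT it was B2m at ZT10, at -2.80 (SE 0.65, adjusted p = 0.84). There the iKO libraries had 512, 903 and 522 CPM and the flox libraries 11046, 1673 and 598 CPM. The genotypes overlapped, since the flox library at 598 CPM lay below the iKO library at 903 CPM. DESeq2 called H2-Q1, H2-Q2 and H2-T24 at ZT14 and H2-Q1 and H2-Q2 at ZT18 in liver, where it called 3.66% and 8.9% of all genes. It called H2-DMb2 at ZT22 in kidney (0.395% of all genes), and B2m at ZT10 and H2-Ob at ZT6 in WAT (0.402% and 0.174%). Without any replicate 3, 6 of 26 members were called at ZT18 in kidney (H2-T23, Nlrc5, Tap1, Tapbp, B2m and H2-Q4), where 4.85% of all genes were, and 2 of 29 at ZT18 in liver (H2-T24 and Tap1), where 8.32% were. In that fit both iKO libraries left at ZT18 are among the 11 numbers.

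A 24 h rhythm was tested with a cosine fit in each genotype, and no member was called in any tissue, nor for a change of rhythm between iKO and flox. The call rates over all genes were 0.0844% in iKO and 0.772% in flox liver, 4.22% in iKO and 5.07% in flox kidney, and 0.0% in both genotypes of WAT. For a change of rhythm they were 0.0% in each tissue. Members at an unadjusted p under 0.05 numbered 6 in iKO and 3 in flox liver (12.2% and 14.9% of all genes), 1 in iKO and 3 in flox kidney (22.5% and 22.3%), and 0 in iKO and 6 in flox WAT (3.78% and 9.69%). DESeq2 called 1 member in flox liver and 1 in flox kidney, with 2.93% and 11.1% of all genes. With time as a factor in place of the cosine, 7 members varied with time in iKO and 2 in flox liver, where 11.6% and 4.11% of all genes did, and 12 in iKO and 4 in flox kidney, where 40.0% and 12.4% did. H2-Q7 in liver came nearest, with a fitted amplitude (log2, mean to peak) of 0.50 and a peak at 15.5 h in iKO (adjusted p = 0.326) and 0.65 and 15.1 h in flox livers (adjusted p = 0.0975). Its 3 iKO livers at ZT18 had 30.4, 32.1 and 21.03 CPM and its 3 flox livers 48.4, 27.4 and 47.9 CPM, against 15.7, 9.99 and 6.18 CPM in iKO and 16.1, 18.01 and 20.3 CPM in flox livers at ZT2.

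H2-Q7 was called rhythmic without the 11 numbers in flox liver, with an amplitude of 0.66, a peak at 15.3 h and an adjusted p of 0.0443, where 8.24% of all genes were called. B2m was then called in flox kidney, with an amplitude of 0.79, a peak at 22.9 h and an adjusted p of 0.0231, where 8.65% were. Its flox kidneys had 1008, 1459 and 396 CPM at ZT22, the first of which was left out in that fit, and 213, 192 and 210.3 CPM at ZT10. With all libraries its amplitude there was 0.93 (adjusted p = 0.148). No member was called in iKO liver, iKO kidney or WAT, or for a change of rhythm, in that fit, where 0.861%, 0.17% and 0.0% of genes were called for a rhythm and at most 0.0164% for a change.

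The average genotype difference was compared between tissues in the fit of all libraries. For liver minus WAT, where 0.592% of all genes were called, H2-Q1 alone of the 31 members had an adjusted p under 0.05, at 3.25 (SE 0.82). No member was called without the 11 numbers, where 0.34% were. H2-Q1 had at most 0.347 CPM in any WAT library, and did not pass the filter in WAT alone. The WAT side of this contrast rests on 36 reads in iKO and 71 in flox libraries, so no difference between the tissues is read from it. For liver minus kidney and kidney minus WAT no member was called, where 0.395% and 0.0132% of all genes were, and none without the 11 numbers, where 0.063% and 0.0042% were.

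Other genes of the presentation pathway were read from lists. A list of 9 proteasome genes held subunits of the immunoproteasome, which cuts proteins into class I peptides, and genes of the proteasome activator. It also held the standard subunits Psmb5, Psmb6 and Psmb7. Together the 9 had 4 positive and 5 negative average differences in liver, and 6 positive and 3 negative in both kidney and WAT, none called. Of 30 interferon-stimulated genes all 30 were positive in each tissue, with medians of 0.82 in liver, 1.01 in kidney and 0.67 in WAT, none called. Of 19 interferon gamma-induced genes tested 17 were positive in liver and 17 in kidney, and in WAT 20 of 20. When the 11 numbers were left out, 28 of the 30 interferon-stimulated genes were negative in liver, 28 in kidney and 26 in WAT, with Oasl1 at -1.27 (SE 0.26), Ifih1 at -0.68 (SE 0.15) and Ddx58 at -0.63 (SE 0.15) called in liver. These 3 are a 2'-5'-oligoadenylate synthetase-like gene and sensors of viral RNA.

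In liver Ifngr2, a subunit of the interferon gamma receptor, rose in iKO by 0.73 (SE 0.20, adjusted p = 0.0425), the one list gene of the pathway called with all libraries. Without the 11 numbers it was at 0.50 (SE 0.23, adjusted p = 0.213) and no longer called. In the fit without the 11 numbers, where 7.03% of all genes were called, the immunoproteasome subunits Psmb9 at -0.57 (SE 0.14) and Psmb10 at -0.55 (SE 0.14) fell in liver, as did Mr1, which presents vitamin B metabolites, at -0.83 (SE 0.22), and Pdia3, a chaperone of the loading complex, at -0.59 (SE 0.17). Ube2l6, an enzyme that conjugates the ubiquitin-like protein ISG15, fell by 0.70 (SE 0.16), and Irf2, an interferon regulatory factor, by 0.59 (SE 0.15). Fcgrt, the class I-like receptor that recycles IgG and albumin, was higher at 0.68 (SE 0.13), and Rfxap, a subunit of the factor RFX that binds MHC promoters, at 0.39 (SE 0.12, adjusted p = 0.0468). In kidney without the 11 numbers the class II protease Ctss fell by 0.65 (SE 0.12) in iKO, where 0.422% of all genes were called. Ctss is also on the list of macrophage markers, and a second gene of that list, Ccr2, fell by 0.88 (SE 0.18) in the same fit, in which 15 of the 16 macrophage markers tested were negative. The part of macrophages in the value of Ctss was not tested.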

How the data were processed

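RNA from liver, kidney and white adipose tissue was sequenced, with 3 libraries for each tissue, genotype and time, as 150-base reads, per the labels' protocols. The submitters' processing notes name featureCounts 1.5.0-p3, HISAT2 2.0.4 and DESeq2 1.16.1. The authors deposited raw read counts per gene. Reads of overlapping genes may be mixed, since the strand setting is not given in the sources used here. Gene positions in the deposited table were not those of GRCm38, the build the labels name: of 52083 IDs shared with GENCODE M21, 1499 had the same start. Printed positions are therefore those of RefSeq GRCm38.p6 and, for H2-Q1, of GENCODE M21 matched by gene ID. No 2 libraries of the same tissue, genotype and time were copies of each other, and copies across these groups were not looked for.

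Counts were tested with edgeR 4.0.16 (quasi-likelihood, TMM, filterByExpr, R 4.3.3), with Benjamini-Hochberg adjustment over all genes tested and a call at an adjusted p under 0.05. Each tissue was fitted with 12 group means, giving the average iKO minus flox difference, that at each time and the interaction, and with a 24 h cosine. All libraries together were fitted with 36 means for tissue pairs. The filter left 29 members in liver, 26 in kidney, 29 in WAT and 31 in the joint fit. Of the 41, 2 had no read (H2-M10.1 and H2-M10.4) and 13 had under 500 reads over all libraries. CPM used TMM factors over 22789 genes and a prior count of 2 on the log2 scale, and RPKM the deposited gene lengths. The fits were checked on simulated data. Alternatives were DESeq2 1.42.0, its size factors, a fit with no filter, a block for the replicate number, time as a factor and single libraries left out.

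Earlier results of these data were known when the members, the lists and the naming rule were chosen. By that rule B2m, Cd74, H2-Q1, H2-K1, H2-D1, H2-Ab1, Tap1, Ciita and Nlrc5 were named in every tissue, with members called in a comparison, those of the largest tissue differences and those highest per length. Of 266 list entries 265 matched the table.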

Additional observations from a re-analysis of the deposited data

Results flagged for a closer look

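The average genotype difference of H2-Q1 differed between liver and WAT, with a log2 difference of 3.25 (SE 0.82, adjusted p = 0.0420 in edgeR's quasi-likelihood test of the difference itself), which is why it is listed here. H2-Q1 had 46721 reads in the 18 iKO livers and 13707 in the 18 flox livers, against 36 reads in iKO and 71 in flox WAT. H2-Q1 did not pass the filter on low counts in WAT fitted alone and entered the test through its liver libraries, so no difference between the tissues is read from it. The call was lost without the 11 numbers, without the 2 numbers with Xist and without the filter on low counts.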

How the results depend on the processing

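With DESeq2 the counts were 2 for the liver average (H2-Q1 and H2-Q7, with 1609 of 15933 genes called), 5, 1 and 2 at single times in liver, kidney and WAT, 1 for a rhythm in flox liver and 1 in flox kidney, and 3 (H2-Q1, H2-Eb2 and H2-Q2) and 1 (H2-Eb2) for the genotype difference of liver minus WAT and kidney minus WAT (3.77% and 0.255% of all genes). Without the filter on low counts, and without the 2 numbers with Xist, it was 0 for the liver average and 0 for liver minus WAT. Without the 11 numbers it was 1 for a rhythm in flox liver and 1 in flox kidney, and 0 for liver minus WAT. With time as a factor, members called as varying with time numbered 7 in iKO and 2 in flox liver, and 12 in iKO and 4 in flox kidney, where 11.6%, 4.11%, 40.0% and 12.4% of all genes were called. The cause was not tested.

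Leaving out 1 library at a time gave 0 to 8 members for the liver average, with 8 without flox ZT6 replicate 1, where Tap1 was at 0.72 (adjusted p = 0.0179) and 19.0% of all genes were called, 3 without flox ZT22 replicate 1 or iKO ZT6 replicate 3 (14.5% and 11.3%), and 0 without most others. It gave 0 to 1 at single times in liver (H2-Q2 at ZT18 without iKO ZT18 replicate 3, where 10.8% of all genes were called). In WAT it also gave 0 to 1 (B2m at ZT10, adjusted p = 0.0159, without flox ZT10 replicate 3, where 0.0446% were). In kidney it gave 0 throughout. Leaving out all libraries of 1 replicate number gave 2 members for the liver average without replicate 1 (H2-Q1 and H2-Q2, 2.89% of all genes) and without replicate 3 (H2-Q1 and H2-T24, 6.95%), and, without replicate 3, 6 at ZT18 in kidney and 2 at ZT18 in liver. It gave 0 to 3 members for the genotype difference of liver minus WAT, with 3 without replicate 3, where 6.8% of all genes were called. For flox liver minus kidney it gave 15 to 18 members (52.7% to 57.2% of all genes). For flox liver minus WAT it gave 14 to 17 (62.5% to 67.9%), and for flox kidney minus WAT 11 to 16 (48.8% to 57.7%). H2-Q1 in liver was 1.92 (adjusted p = 0.114) without the filter and 1.93 (adjusted p = 0.00243) with DESeq2.

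Average differences that were not called changed sign without the 11 numbers, among others to -0.061 for Cd74, -0.14 for H2-D1 and -0.059 for Nlrc5 in liver, -0.19 for B2m, -0.017 for H2-D1, -0.057 for H2-K1 and -0.58 for Nlrc5 in kidney, and -0.067 for Ciita and -0.15 for Nlrc5 in WAT. Cd74 in liver was -0.016 without the 2 numbers with Xist. With single libraries left out, liver values ran from -0.12 to 0.24 for Cd74, -0.019 to 0.17 for H2-Ab1 and -0.0073 to 0.15 for Nlrc5.

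Deviations of the iKO and flox library of 1 replicate number correlated at -0.52 to 0.62 in liver (median 0.022). The correlations ran from -0.24 to 0.38 in kidney (median 0.026) and from -0.66 to 0.85 in WAT (median 0.107). Ranges this wide cannot show whether the numbers pair the samples. With the replicate number as a block the liver average still gave 1 member, at 1.79 for H2-Q1, and flox kidney minus flox WAT still 15. With the number that the titles share across tissues as the block, flox kidney minus flox WAT gave 20, adding H2-Ab1, Ciita, H2-T22, H2-Q6 and H2-DMb1. Deviations of 1 such number correlated at -0.086 to 0.23 between tissues. The 2 numbers with Xist had it in liver, kidney and WAT, so the libraries of 1 number may come from 1 animal. The main fit of tissue pairs used no block for that number and treats its libraries as independent. Members with few reads are limited by depth, and a difference in them may have gone undetected here.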
